A study of Mus musculus with 6 samples.

Results

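The erythroid genes described here are 8 genes of the red blood cell lineage, Hba-a1, Alas2, Slc4a1, Ahsp, Klf1, Epb42, Gata1 and Hemgn, taken as every probe that the platform annotation assigns to one of these symbols. The rule found 9 probes among the 45281 on the array, for 7 of the 8 genes (of 19057 genes with a probe), and Ahsp was not analysed here. Gata1 and Hemgn had 2 probes each. A probe was tested where it was detected (detection p under 0.05) on at least 2 of 6 arrays, which kept 8 of the 9 member probes and 21981 probes in all. Total RNA of newborn mouse ovary was hybridised to Illumina MouseWG-6 BeadChips, on 4 arrays of mice lacking both Sohlh1 and Sohlh2 (double knockout, DKO1, DKO2, DKO3 and DKO5) and 2 arrays of wildtype mice (WT2 and WT3). All 6 samples carry the strain label C57BL/6/129S6/SvEv, and the array numbers are those of the sample titles. Nothing in the labels says whether each array is a separate animal or a pool, so a p-value here reflects the spread among these 6 arrays, part of which may be technical. The comparison asks how the genotypes, and the single arrays within each genotype, differ in erythroid RNA.

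Red cells form from progenitors that switch on globin, heme and membrane genes under the transcription factors Gata1, Tal1 and Klf1. In newborn mice the liver and spleen still produce red cells, and young red cells in the circulation keep globin RNA after the nucleus is lost. Whole ovary RNA therefore holds the RNA of the blood left in its vessels, and the transcripts of the late reticulocyte (mainly globin and Alas2) differ from those of a nucleated precursor (Klf1, Gata1). In bulk RNA, fewer cells of a type and less RNA per cell cannot be told apart.

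The raw signals of the 2 Sohlh1 probes were 594 to 805 and 701 to 898 on the 4 double-knockout arrays, against 7443 to 8100 and 8467 to 8932 on the 2 wildtype arrays, which fits the genotype labels (log2 fold changes -3.32 and -3.29, adjusted p = 3.41e-05 for each with limma and Benjamini-Hochberg adjustment over all tested probes). The position of the probes in the gene, and so against the deletion, is not known here. The single Sohlh2 probe was detected on 0 double-knockout arrays and 1 wildtype array, and was not tested. Each array detected between 44.4% and 45.5% of its probes. At an adjusted p under 0.05, 803 of all tested probes (3.65%) were higher and 795 (3.62%) lower in the double knockout, 7.27% in either direction. Precision is limited by having only 6 arrays. With 4 against 2 arrays there are 15 ways to divide the samples, so an exact two-sided permutation test of 1 probe cannot give a p below 0.0667.

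Gata1 binds the letters GATA in DNA, and Klf1 binds CACCC boxes, so the sequence before the start of 4 members is shown with both sets of letters marked: the α-globin gene, the heme enzyme that passed the test, Klf1 itself, and Hemgn, a known target of Gata1. The sequences are the 250 bases before the annotated transcript start, from RefSeq (GRCm38.p6), 5′ to 3′ on the gene's strand, with GATAA and CACCC on either strand in capitals (TTATC and GGGTG are the same letters on the other strand). They are Hba-a1 at chr11:32283422-32283671 (plus strand), Alas2 at chrX:150547167-150547416 (plus), Klf1 at chr8:84901732-84901981 (plus) and Hemgn at chr4:46404184-46404433 (minus).
Hba-a1: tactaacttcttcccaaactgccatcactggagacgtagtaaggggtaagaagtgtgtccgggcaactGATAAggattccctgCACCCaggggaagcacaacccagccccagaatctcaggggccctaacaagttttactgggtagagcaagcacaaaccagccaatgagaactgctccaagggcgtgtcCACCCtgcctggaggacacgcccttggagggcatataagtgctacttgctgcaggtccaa
Alas2: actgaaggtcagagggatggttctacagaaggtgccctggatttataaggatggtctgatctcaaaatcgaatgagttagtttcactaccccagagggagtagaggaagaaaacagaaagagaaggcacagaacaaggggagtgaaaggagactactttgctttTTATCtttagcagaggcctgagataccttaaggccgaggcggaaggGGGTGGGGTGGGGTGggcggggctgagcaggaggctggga
Klf1: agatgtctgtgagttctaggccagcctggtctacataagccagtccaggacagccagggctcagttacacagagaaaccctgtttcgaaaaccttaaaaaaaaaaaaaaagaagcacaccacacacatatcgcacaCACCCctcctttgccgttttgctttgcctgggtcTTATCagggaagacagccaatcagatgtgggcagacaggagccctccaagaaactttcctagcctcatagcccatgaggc
Hemgn: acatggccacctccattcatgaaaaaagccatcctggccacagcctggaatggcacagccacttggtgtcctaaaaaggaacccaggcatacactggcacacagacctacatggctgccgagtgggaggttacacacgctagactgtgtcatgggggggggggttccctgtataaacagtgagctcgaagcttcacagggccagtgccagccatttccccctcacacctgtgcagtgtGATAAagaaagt
In Alas2 the 3 CACCC matches lie end to end, 40, 35 and 30 bases before the start, and the GATAA match lies 86 bases before it. Klf1 has CACCC 114 and GATAA 80 bases before its start, and Hba-a1 has GATAA at 182 and CACCC at 167 and 60 bases. Hemgn has GATAA 12 bases before the start. The table held 6 of the 8 members, and over its windows of 250 bases before to 50 after the start, 5 of the 6 hold GATAA and 4 of the 6 hold CACCC. Among all 27025 mouse promoters in the table, 25.8% hold GATAA, 56.7% hold CACCC and 12.6% hold both. A match describes the letters in the window and is not evidence of a bound site.

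Of the 8 tested erythroid probes, 1 rose in the double knockout (Alas2) and 0 fell, against 3.65% called higher among all tested probes. In 5 of the 8, every double-knockout array lay above every wildtype array, an arrangement found in 17.8% of all tested probes. For 3 of the 8 probes (both of Gata1 and 1 of Hemgn) the filter was passed through the double-knockout arrays alone, so a higher level there was built into their selection. The Hba-a1 probe, which read close to the brightest signal of its array, differed by less than its standard error. Alas2 was 2.54-fold higher, and Slc4a1 differed 13.1-fold between the group means, a log2 difference of 3.72 beside a range of 4.33 among the double-knockout arrays. The plot of member probes by array shows these patterns side by side.

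**Figure D1:**
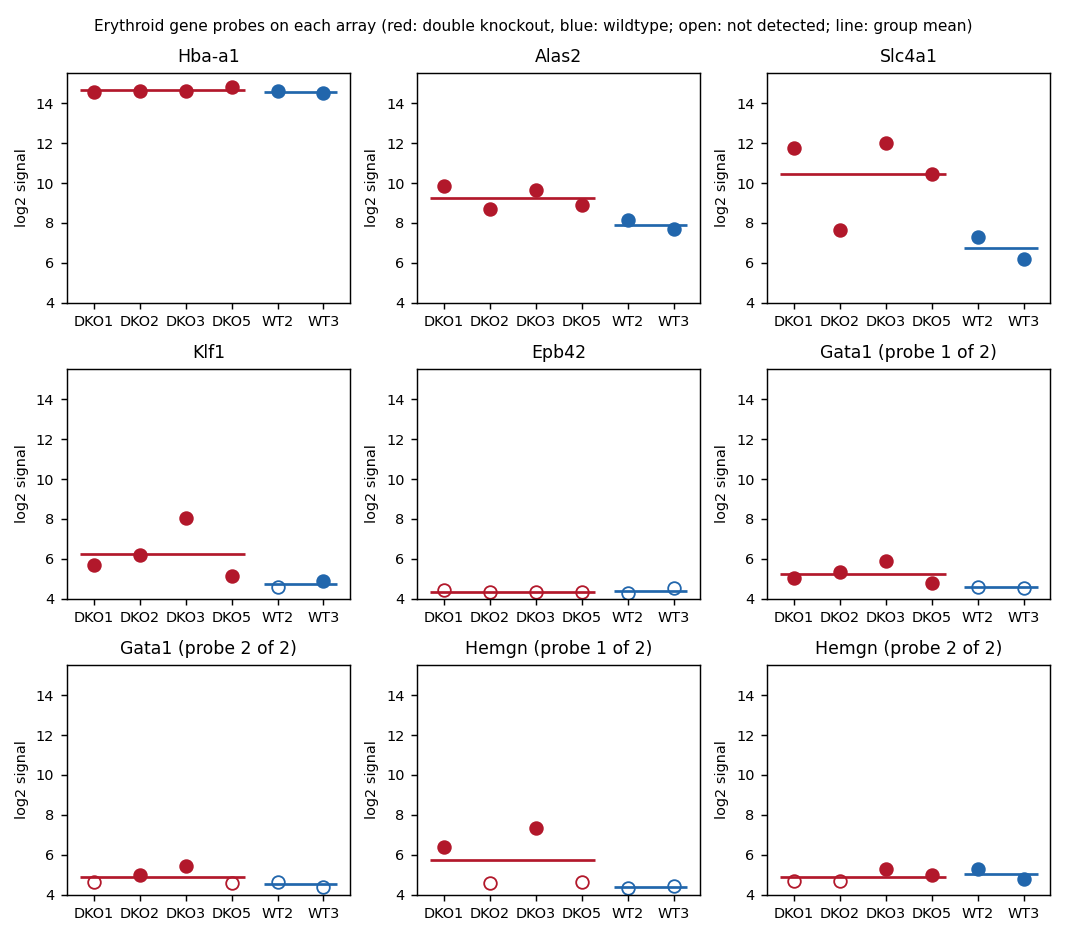
Normalized log2 signal (y axis) of each of the 9 erythroid probes on each array (x axis), with 4 double-knockout arrays in red, left, and 2 wildtype arrays in blue, right. Open circles are not detected and lines are group means; Hba-a1 is level across arrays, Slc4a1 spans 4.33 log2 units among the double-knockout arrays, and Epb42 is not detected on any array.

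Hba-a1 encodes an adult α-globin chain, which pairs with β-globin chains in haemoglobin. Its raw signals were 22084, 27711, 24790.3 and 29299 on DKO1, DKO2, DKO3 and DKO5, against 26346 and 22288 on WT2 and WT3. The groups overlapped, with DKO5 highest and WT3 lowest. The log2 fold change was 0.09 ± 0.14 (SE), with an adjusted p of 0.741 (limma). These signals stood at 76.7% to 97.5% of the brightest signal on the same array. Whether the probe could have read higher was not tested. On the normalized log2 scale the 4 double-knockout arrays averaged 14.64 ± 0.11 (SD, n = 4) and the 2 wildtype arrays 14.55 ± 0.07 (SD, n = 2).

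The adult β-globin genes Hbb-bs and Hbb-bt were read by 10 tested probes, 6 assigned to Hbb-bs and 4 to Hbb-bt. Hbb-bs and Hbb-bt are near-identical copies whose transcripts a probe may not tell apart. All 10 log2 fold changes were positive, from 0.12 to 1.31 with a median of 0.47, but without WT3 only 7 of 10 were, with a median of 0.088 and values from -0.66 to 0.69. Of the 10, 0 passed the test (adjusted p between 0.11 and 0.729, limma). WT3 was the lowest array on 10 of the 10 probes and DKO1 the highest on 9, on the normalized scale. Of the 10 probes, 8 exceeded a raw signal of 10000 on at least 1 array. The Hbb-bs probe with the largest difference lay well below that level, with raw signals of 2467, 1183, 2476 and 1244 on DKO1, DKO2, DKO3 and DKO5, against 1363 and 528 on WT2 and WT3. On the raw scale DKO1 and DKO3 were high, WT3 was low, and WT2 lay above DKO2 and DKO5. Hbb-b2 had 314, 89.1, 275 and 129.9 in the double knockout, against 114 and 129.9 in wildtype (log2 fold change 0.89 ± 0.63 SE, adjusted p = 0.427, limma). DKO1 and DKO3 were again the high arrays, and DKO2 lay below both wildtype arrays.

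**Figure D2:**
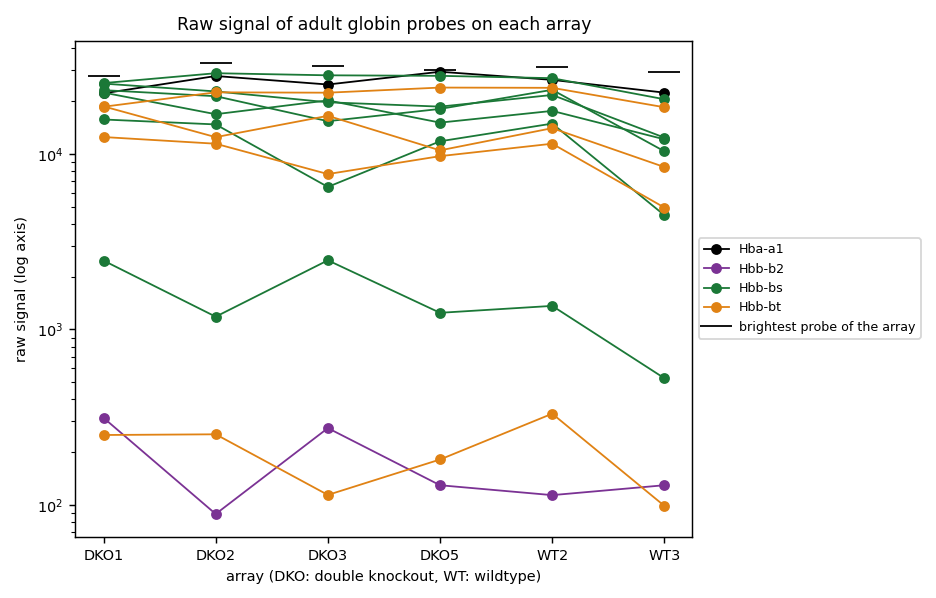
Raw signal (log y axis) of the Hba-a1, Hbb-bs, Hbb-bt and Hbb-b2 probes on each array (x axis), double knockout left of wildtype; each line joins the values of 1 probe and the dashes mark the brightest probe of the array. The brightest globin probes sit just under the dashes on every array, and WT3 is low on most Hbb probes.

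The embryonic chains and the theta chain Hbq1b were at background. Hba-x, Hbb-y and Hbq1b were detected on 0 of the 6 arrays, and Hbb-bh1 was detected on 0 double-knockout arrays and 1 wildtype array, by 1 of its 2 probes. Hbq1a, a theta chain, was detected on 2 double-knockout arrays and 0 wildtype arrays, and was at least 1.10-fold higher in the double knockout (adjusted p = 0.109, limma). Here and below, "at least" sets the double-knockout mean against the lowest detected signal of the wildtype arrays, or the probe's own signal where that was higher, because the probe was not detected on either wildtype array. For Hbq1a and the brighter Hemgn probe that mean includes 2 double-knockout arrays without detection. There, "at least" holds only for the mean of the measured signals.

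Alas2 encodes the erythroid aminolevulinate synthase, the enzyme of the opening step of heme synthesis in red cell precursors. It gave raw signals of 776, 449, 846 and 499.5 on DKO1, DKO2, DKO3 and DKO5, against 369.9 and 250.3 on WT2 and WT3. Every double-knockout array lay above both wildtype arrays, and DKO1 and DKO3 were the highest. The normalized log2 level averaged 9.27 ± 0.56 (SD, n = 4) in the double knockout and 7.92 ± 0.34 (SD, n = 2) in wildtype. The log2 fold change was 1.35 ± 0.32 (SE), or 2.54-fold, with an adjusted p of 0.0405 (limma), and the exact permutation test over the 6 arrays gave 0.133. The call was lost without DKO1, DKO3, WT2 or WT3 (adjusted p = 0.0764, 0.0635, 0.151 and 0.223), while the log2 fold change without 1 array stayed between 1.10 and 1.58.

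Slc4a1 encodes band 3, the anion exchanger of the red cell membrane, which is also known from acid-secreting cells of the kidney. Its raw signals were 2836, 239, 4068 and 1344 on DKO1, DKO2, DKO3 and DKO5, against 223 and 114 on WT2 and WT3. DKO1, DKO3 and DKO5 stood far above wildtype, and DKO2 stood only just above WT2. The log2 levels averaged 10.46 ± 1.99 (SD, n = 4) in the double knockout and 6.74 ± 0.79 (SD, n = 2) in wildtype. The difference of 3.72 ± 1.03 (SE) was the 2nd largest positive one among the 21981 tested probes, yet its adjusted p of 0.0628 (limma) did not pass the threshold. The exact permutation p was 0.133. The raw signal differed 17.0-fold between the highest and lowest double-knockout arrays and 1.96-fold between the wildtype arrays. Without DKO2 the log2 difference was 4.64 and passed the test (adjusted p = 0.00331, limma), the only array whose removal gave a call.

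Epb42 encodes protein 4.2, which ties band 3 to the membrane skeleton. Its single probe was detected on 0 of the 6 arrays, with raw signals of 50.8 to 55.7 in the double knockout, against 50.3 and 58.7 in wildtype, and it was not tested. The probe gave no detected signal even on DKO3, where Slc4a1 was highest.

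Among the transcription factors, Klf1, which activates the adult β-globin gene, gave raw signals of 83.5, 109, 301 and 71.6 on DKO1, DKO2, DKO3 and DKO5, against 60.4 and 67.8 on WT2 and WT3. DKO3 stood apart from the other arrays, while DKO5 was close to WT3. Klf1 was detected on 4 of 4 double-knockout arrays and 1 of 2 wildtype arrays. The log2 difference was 1.54 ± 0.65 (SE) with an adjusted p of 0.184 (limma), and 0.95 without DKO3 (adjusted p = 0.0848).

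The brighter Gata1 probe, for the zinc-finger factor that drives the erythroid programme, gave 68.0, 76.9, 94.4 and 64.0 in DKO1, DKO2, DKO3 and DKO5, against 61.3 and 59.2 in WT2 and WT3. It was detected on 4 of 4 double-knockout arrays and 0 of 2 wildtype arrays, at least 1.46-fold higher in the double knockout (adjusted p = 0.146, limma). The groups did not overlap, but all 6 signals lay near background. The other Gata1 probe, detected on DKO2 and DKO3 only, overlapped between groups (58.9 to 78.7 in the double knockout, against 55.2 and 62.5 in wildtype, adjusted p = 0.374, limma).

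Hemgn encodes hemogen, a nuclear protein of blood-forming cells. Its brighter probe gave 110.1, 60, 194 and 60.2 in DKO1, DKO2, DKO3 and DKO5, against 52.8 and 55.6 in WT2 and WT3. It was detected on DKO1 and DKO3 only. Its double-knockout mean, with the undetected DKO2 and DKO5 included, was at least 2.02-fold higher (adjusted p = 0.267, limma). The other probe went the other way, with 61.5 to 74.7 in the double knockout, against 80.5 and 65.7 in wildtype, and a log2 fold change of -0.13 (adjusted p = 0.749, limma). The 2 probes of Hemgn thus disagreed, and neither passed the test.

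Read array by array, each tested member gene was represented by its brightest tested probe, which left out the dimmer Gata1 and Hemgn probes. The erythroid level was the mean log2 level over the 6 tested member genes, each centred on its mean over the 6 arrays. It was 0.76 on DKO1, -0.27 on DKO2, 1.46 on DKO3 and 0.00 on DKO5, against -0.86 on WT2 and -1.09 on WT3. Both wildtype arrays were lowest, DKO2 was the nearest to them, and DKO3 was the highest. The standard deviation was 0.78 among the 4 double-knockout arrays and 0.16 between the 2 wildtype arrays. The group means differed by 1.46, and by 1.00 without Slc4a1. Gata1 and Hemgn entered this mean although they had passed the filter through double-knockout arrays alone. Over the other 4 genes the level was 0.86 on DKO1, -0.31 on DKO2, 1.46 on DKO3 and 0.22 on DKO5, against -0.94 on WT2 and -1.29 on WT3, a difference of 1.67. This larger difference reflects the greater weight of Slc4a1 in a mean of 4 genes. The log2 differences were 3.72 for Slc4a1, 1.54 for Klf1, 1.35 for Alas2 and 0.09 for Hba-a1. No test was made of this score. DKO3 was among the 2 highest arrays for 5 of the 6 genes, and WT3 among the 2 lowest for 6 of the 6. Of the 6 probes used, only that of Hba-a1 placed a wildtype array, WT2, among the 3 highest. Of the probes left out, the dimmer Hemgn probe was highest on WT2, and the dimmer Gata1 probe placed WT2 among the 3 highest.

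Slc4a1 was also among the probes that varied most within a genotype. Only 16 other probes of 21981 had a standard deviation among the double-knockout arrays at least as large, and all 17 were highest on DKO3. Of the 17, 9 belong to the neutrophil marker list (probes of Mpo, Ctsg, Elane, Prtn3, Camp, S100a8 and S100a9), and others include Prg2, a granule protein of eosinophils. These genes were named after their values were seen. Of the 17, 2 are unnamed here. The unnamed probe ILMN_2696696 gave 518, 73.9, 928 and 179 on DKO1, DKO2, DKO3 and DKO5, against 64.0 and 54.7 on WT2 and WT3, and so ordered the 6 arrays as Slc4a1 did. The brightest Mpo probe differed from that order: it gave 54.3, 806, 8364 and 46.6 on DKO1, DKO2, DKO3 and DKO5, against 1005 and 82.9 on WT2 and WT3. This Mpo probe was not detected on DKO1 or DKO5, where Slc4a1 was high.

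To see whether other genes of the pathway followed, 7 lists of erythroid function were read, which together held 85 tested genes, each represented by its brightest tested probe. Of these, 9 were higher and 4 lower in the double knockout and 72 did not pass, against 4.79% called higher and 3.58% lower (8.38% in either direction) among all 12163 tested genes. The median log2 fold change was 0.34 over the 85 genes and 0.03 over all genes, and 69 of the 85 had a positive value, against 53.1% of all genes. In 36 of the 85, every double-knockout array lay above every wildtype array, against 21.7% of all genes. The filter was passed through double-knockout arrays alone for 8 of the 85, and the other 77 had a median of 0.25 with 61 positive. Without the members, 8 of 79 genes were higher and 4 lower, with a median of 0.32.

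DKO3 was the highest array for 43 of the 85 genes (50.6%, against 16.4% of all tested genes) and DKO1 for 17 (20%, against 14.3%). WT2 was the lowest for 28 genes (32.9%, against 24.1% of all tested genes), WT3 for 24 (28.2%, against 17.1%) and DKO5 for 22 (25.9%, against 17.4%). DKO1 and DKO3 were rarely the lowest array, for 1 and 2 genes.

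The text names 21 called genes from the lists, of which Add2, Kit, Tpsb2 and Sox18 kept their call under every alternative run. The others lost it under 1 to 11 alternatives: 16 of the 21 calls were lost without WT2, 13 without WT3, 8 without DKO1, 5 without DKO3 and 1 each without DKO2 and DKO5. All 21 kept their direction.

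The counts of called genes in this and the later lists stand against 4.79% called higher and 3.58% lower among all tested genes. In heme synthesis and iron supply, 2 of 22 tested genes rose and 0 fell. Besides Alas2 these were Alas1, the form of the same enzyme found in all tissues, with raw signals of 1992, 2140.4, 2551 and 2210.1 in DKO1, DKO2, DKO3 and DKO5, against 1755 and 1569 in WT2 and WT3 (log2 fold change 0.67, adjusted p = 0.0249, limma). All double-knockout arrays of Alas1 lay close together and above wildtype, unlike the wide spread of Slc4a1.

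Among red cell membrane skeleton and surface genes, 1 of 16 rose, 1 fell, and 14 did not pass. Sptb, the erythroid β-spectrin, gave 298, 234, 533 and 207 in DKO1, DKO2, DKO3 and DKO5, against 134 and 107 in WT2 and WT3 (log2 fold change 1.87 ± 0.37 SE, adjusted p = 0.0202, limma). All 4 double-knockout arrays were above wildtype and DKO3 was the highest. Add2, a β-adducin that caps actin in the red cell skeleton and is also made in neurons, went down, with 77.9, 67.9, 97.8 and 87.6 in DKO1, DKO2, DKO3 and DKO5, against 362 and 239 in WT2 and WT3 (log2 fold change -2.33 ± 0.27 SE, adjusted p = 0.0019, limma).

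Of 15 erythroid transcription factors, 2 rose, 1 fell and 12 did not pass. Tal1, a partner of Gata1, gave 115, 110.4, 191 and 101 in DKO1, DKO2, DKO3 and DKO5, against 64.2 and 65.0 in WT2 and WT3 (log2 fold change 1.78 ± 0.30 SE, adjusted p = 0.0107, limma). Tal1 is also expressed in endothelial and mast cells. E2f2, a cell-cycle factor, rose with a log2 fold change of 1.19 (adjusted p = 0.0136), and Gata2, the factor of early progenitors and mast cells, fell by 0.94 (adjusted p = 0.0394, limma). The median over the 15 was 0.70, and 3 of them had passed the filter through double-knockout arrays alone.

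In erythropoietin signalling, 2 of 9 genes rose and 1 fell. Stat5a, a transducer of cytokine receptors, and Cish, a feedback inhibitor induced by it, had log2 fold changes of 0.99 and 0.95 (adjusted p = 0.0075 and 0.0142), and the kinase Jak2 fell by 0.89 (adjusted p = 0.0156, limma). Among 8 red cell enzymes, Nt5c3, a pyrimidine nucleotidase, rose by 0.87 (adjusted p = 0.0216) and Bpgm, which makes 2,3-bisphosphoglycerate, fell by 0.80 (adjusted p = 0.0121, limma). The raw signals of Bpgm were dim, 63.9 to 70.4 in the double knockout, against 99.1 and 94.1 in WT2 and WT3. Of 10 reticulocyte maturation genes, 1 rose, Isg20, an exonuclease also induced by interferon (log2 fold change 1.00, adjusted p = 0.0357, limma). Isg20 was also dim, at 79.5 to 111.8 in the double knockout, against 69.5 and 59.9 in WT2 and WT3. It was detected on only 1 wildtype array. Trim10, which is needed for terminal erythroid differentiation, was picked after its values were seen because it resembled Slc4a1. It gave 250.1, 64.0, 355 and 117 in DKO1, DKO2, DKO3 and DKO5, against 72.1 and 66.1 in WT2 and WT3, with DKO2 below both wildtype arrays.

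**Figure D3:**
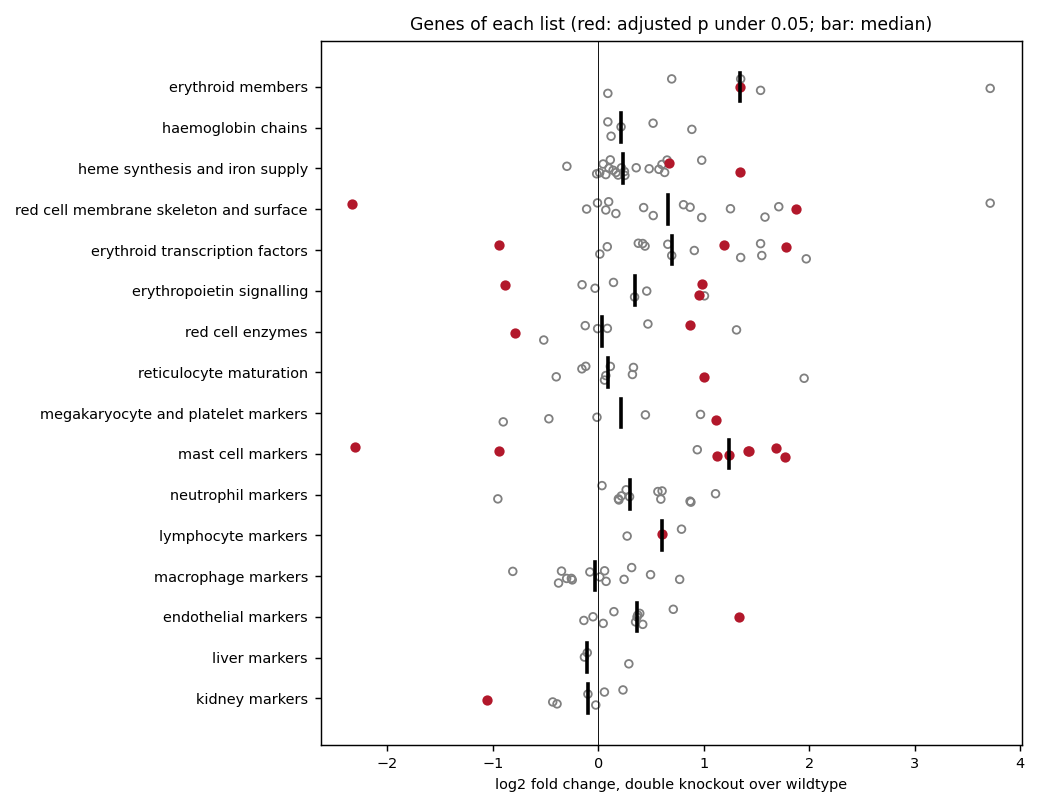
Log2 fold change, double knockout over wildtype (x axis), of the tested genes of each list (rows); red points have an adjusted p under 0.05, open points do not, and bars mark medians. The member genes have a median of 1.35, the erythroid function lists lie between 0.04 and 0.70, and the mast cell list holds 6 rises and 2 falls.

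Markers of other blood and tissue cells were read on the same arrays, with the summed level given as normalized, background-corrected signal. Of 13 neutrophil markers, 0 passed the test in either direction, but their sum ran from 312 to 21452 on the double-knockout arrays, against 1392 to 2132 in wildtype, with DKO3 at 21452 and DKO5 at 312. Mmp8 was not detected. S100a8, a calcium-binding protein of neutrophils, gave 544, 363, 5328 and 143 in DKO1, DKO2, DKO3 and DKO5, against 508 and 705 in WT2 and WT3. Lcn2, the other of the 2 brightest, gave 236, 181, 476 and 111, against 385 and 482 (log2 fold change -0.95, adjusted p = 0.337, limma). Its signal on DKO3 was thus close to that on WT3. The summed neutrophil level and the erythroid level were both highest on DKO3, while DKO1 was high in erythroid and not in neutrophil markers. The part of these cells in the erythroid result was not tested.

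Mast cell markers moved with genotype: of 9 tested, 6 were higher, 2 lower and 1 did not pass. The mast cell proteases Tpsb2, Tpsab1 and Mcpt4 rose with log2 fold changes of 1.77, 1.69 and 1.43 (adjusted p = 0.000749, 0.00713 and 0.00466, limma). Kit and Gata2 fell, by 2.31 (adjusted p = 0.000707) and 0.94. Kit is also the receptor of oocytes, and Gata2 stands in both the mast cell and the erythroid factor list. The summed level was 16940 to 25529 in the double knockout, against 14722 to 15060 in wildtype, and Ms4a2 was not detected. Tal1, Stat5a and Gata2 are genes that mast cells also express, and the part of mast cells in their changes was not tested.

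Of 6 tested megakaryocyte and platelet markers, 1 rose (Vwf, von Willebrand factor, also endothelial; log2 fold change 1.12, adjusted p = 0.0382, limma), with sums of 484 to 663 in the double knockout, against 351 to 373 in wildtype, and with Ppbp and Gp1bb not detected. Vwf was the brightest of the 6 on every array, while the platelet chemokine Pf4 gave 101, 133, 82.6 and 78.8 in DKO1, DKO2, DKO3 and DKO5, against 196 and 140.0 in WT2 and WT3, lower on every double-knockout array, though DKO2 and WT3 were close (log2 fold change -0.90, adjusted p = 0.123, limma). Only 3 of the 6 had positive values, and the list's mean centred level overlapped, from -0.30 to 0.27 in the double knockout, against -0.17 and -0.09 in wildtype. Of 11 endothelial markers, 1 rose (Sox18, a vessel transcription factor; 1.34, adjusted p = 0.00195, limma), and their sum was 11060 to 13245 in the double knockout, against 8758 to 9711 in wildtype. The endothelial sums did not overlap between genotypes, and the part of vessels in the erythroid result was not tested. Of 3 tested lymphocyte markers, Igll1, a chain of the pre-B cell receptor, was at least 1.26-fold higher (adjusted p = 0.0414, limma), with sums of 71.6 to 125 in the double knockout, against 48.2 to 52.7 in wildtype, and with Ms4a1, Cd3g and Cd3d not detected. Igll1 and Vpreb1, 2 of the 3, had passed the filter through double-knockout arrays alone, so this direction was built into their selection, and the call of Igll1 was lost under 11 of 15 alternatives. Of 14 macrophage markers, 0 passed, with a median of -0.03 and sums of 5510 to 10434 in the double knockout, against 4872 to 6457 in wildtype; the brightest were Laptm5 (0.77, adjusted p = 0.0674) and Lyz1 (0.50, adjusted p = 0.472, limma).

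Newborn liver makes red cells, and the kidney uses Slc4a1, so markers of both organs were read as well. Of 3 tested liver markers 0 passed, and Alb, Afp, Ttr, Fgb and Tat were not detected on any array; the brightest tested were Apoa1 (-0.11, adjusted p = 0.754) and Cps1 (-0.13, adjusted p = 0.817, limma). The tested liver markers summed to 90.5 to 112 in the double knockout, against 97.4 to 118 in wildtype. Of 7 tested kidney markers, 0 rose and 1 fell (Cdh16, a cadherin of kidney epithelium, by 1.06; adjusted p = 0.033, limma). Nphs1, Atp6v0a4, Foxi1, Kcnj1 and Slc22a6 were not detected, and the sum was 369 to 637 in the double knockout, against 835 to 1031 in wildtype. The summed kidney level was thus lower on every double-knockout array than on either wildtype array, but Cdh16 made up most of it. The raw signals of Cdh16 were 418, 458, 390 and 279 in DKO1, DKO2, DKO3 and DKO5, against 831 and 922 in WT2 and WT3. Of the 7 markers, 2 were lower on every double-knockout array than on either wildtype array, an arrangement found in 17% of all tested probes.

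**Figure D4:**
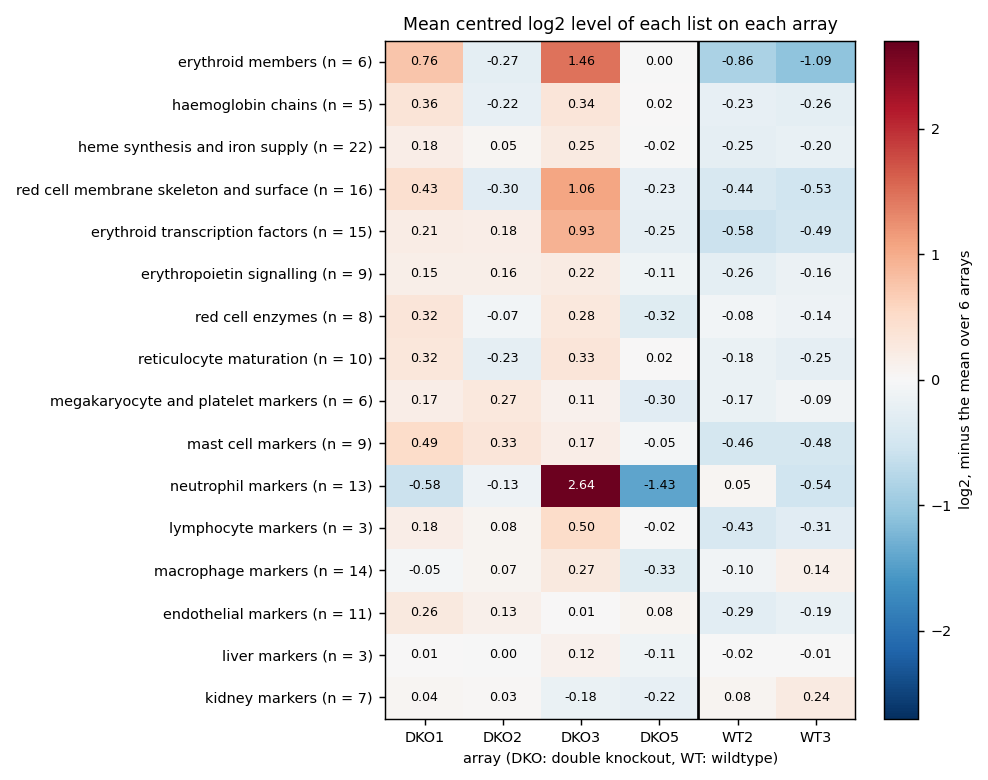
Mean centred log2 level of the tested genes of each list (rows) on each array (columns, double knockout left of the line, wildtype right), red above and blue below the mean over 6 arrays. The member genes read 1.46 on DKO3 and -1.09 on WT3; the neutrophil list reads 2.64 on DKO3 and -1.43 on DKO5.

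The genes outside all lists whose profile over the 6 arrays came closest to that of the members were Samsn1, Cytip, Allc, Rsad2, Cnr2, Osm, Gfi1 and Zfp429. Their root mean square difference from the mean member profile was 0.25 to 0.35 on the log2 scale, against a median of 1.04 over the 2861 candidate probes. A profile level over the 6 arrays would differ by 0.88. Samsn1, a signalling adaptor of blood cells, gave 177, 162, 410.1 and 136 in DKO1, DKO2, DKO3 and DKO5, against 103 and 86.3 in WT2 and WT3. Gfi1, a transcription factor of neutrophil and blood stem cell development, gave 94.2, 95.5, 162 and 101 in DKO1, DKO2, DKO3 and DKO5, against 67.9 and 71.3 in WT2 and WT3. Both were highest on DKO3 and lowest on the wildtype arrays. Since these genes were picked for following the mean member profile, which was itself higher on the double-knockout arrays, no test between genotypes is given for them. Cnr2, Allc and Osm were detected on 0 wildtype arrays.

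**Figure D5:**
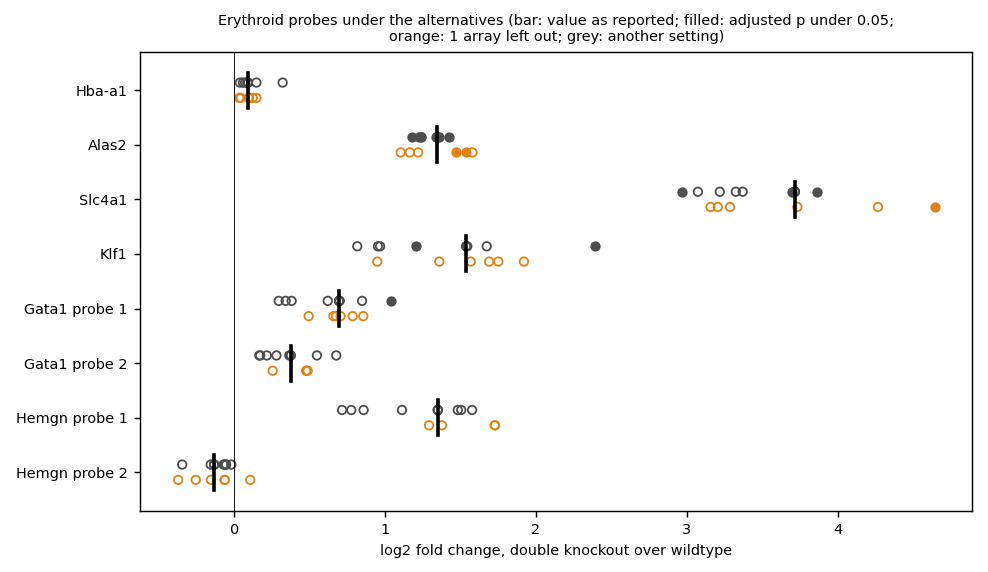
Log2 fold change, double knockout over wildtype (x axis), of the 8 tested erythroid probes (rows) as reported (bars), with 1 array left out (orange) and under other processing settings (grey); filled points have an adjusted p under 0.05. Alas2 stays between 1.10 and 1.58 and Slc4a1 between 2.97 and 4.64, while points of the dimmer Hemgn probe lie on both sides of 0.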

How the data were processed

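The authors deposited the scanner's signal intensity for each probe on each array, neither background-subtracted nor normalized, judging by its values. Beside each signal stands a detection score deposited by the authors, which falls as signals dim and was read as 1 minus a detection p. The authors also deposited a value table of quantile-normalized linear intensity, used as an alternative; its medians are 59.6 (DKO1) and 59.5 (the other 5 arrays), and it keeps the order of the raw signals (rank correlation at least 0.99999 with its own array), uncentred and in the same direction. GenomeStudio is named in the submitters' processing notes, without a version. Signals were corrected with normexp from the detection p (R 4.3.3 with limma 3.58.1). After adding an offset of 16 and quantile normalization, log2 was taken; the offset understates changes of dim probes. Probes detected (p under 0.05) on at least 2 arrays were tested across the 6 arrays with limma (lmFit, eBayes), adjusted by Benjamini-Hochberg over 21981 probes at 0.05, and the procedure was tested on simulated data.

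The platform annotation gave 1 symbol for 34885 probes and several for 18, and left 10378 unnamed here. The named genes were all members, Sohlh1, the tested haemoglobin chains, up to 4 called genes of each list (the largest changes) or else its 2 brightest, and the 8 genes closest to the member profile with a range of at least 1. The members and lists were chosen with earlier results of these data known. Sample numbers differ between titles and descriptions, and neither set was taken as pairing. The alternatives were background correction, offset, scaling, the detection filter, the authors' values, the variance model, array weights, a replicate block, leaving out each array and averaging a gene's probes.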

Additional observations from a re-analysis of the deposited data

Results flagged for a closer look

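Among the 54 named probes, 2 (3.7%) had 1 double-knockout array far from the other 3, by Dixon's 95% criterion; chance flags about 1 in 20 groups. Jak2, a kinase of erythropoietin signalling, stood at a log2 level of 9.36 on DKO5, against 9.58 to 9.60 on the other double-knockout arrays. Gfi1, one of the genes closest to the erythroid profile, stood at 6.98 on DKO3, against 5.89 to 6.06 on the others. That profile was itself highest on DKO3, so a high DKO3 was favoured by the selection of Gfi1. The rate of 1 in 20 therefore does not apply to Gfi1. The neutrophil level was also highest on DKO3, and the relation was not tested.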

How the results depend on the processing

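The erythroid count is small and moved with most settings. The member probes called higher, 1 as reported, numbered 2 with 75th percentile scaling, 0 without a detection filter, 0 with an intensity trend and robust variance, 2 with array weights, and 0 to 2 with 1 array left out. The genes of the 7 erythroid lists called higher, 9 as reported, numbered 5 without a filter, 14 with the authors' values, 15 with the intensity trend and 0 to 14 with 1 array left out (0 without WT2, 2 without WT3, 4 without DKO1, 14 without DKO2); those called lower, 4 as reported, numbered 1 to 4 (1 without WT2, 2 without WT3). Over all probes, 803 higher and 795 lower became 113 to 755 and 111 to 688 with 1 array left out (433 and 423 without DKO1, 113 and 111 without WT2, 201 and 230 without WT3). The replicate block from the titles gave 2 member probes, 15 list genes higher and 1 lower, and 432 and 449 probes over the table; that from the descriptions gave 3 member probes and 16 list genes higher. Deviations of same-numbered arrays from their group means correlated at -0.10 and -0.03 by title and -0.11 and 0.10 by description, with 2 pairs each, so the numbers are only shared labels.

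Alas2 kept its call under 9 of 16 alternatives (adjusted p from 0.00857 to 0.223, limma), Slc4a1 passed under 4, Klf1 under 2 and the brighter Gata1 probe under 1. The difference in mean erythroid level kept its sign under the 4 alternatives run. Signs turned, with no call, for the dimmer Hemgn probe (-0.37 to 0.11 with 1 array left out, positive without WT2), 3 β-globin probes (-0.13 to 0.97 and -0.13 to 1.51 for Hbb-bs, -0.66 to 1.44 for Hbb-bt, negative without WT3), Apoa1 (-0.33 to 0.13, positive without WT3), S100a8 (-0.84 without DKO3 to 1.02 without DKO5, and -0.16 with the block from the descriptions) and Cps1 (-0.32 to 0.051, positive without DKO5 or WT2, and 0.044 with the block from the titles). The causes were not tested. Only 2 wildtype arrays set the precision, and the brightest globin probes lay near the brightest signal of their arrays. Gata1, Hemgn and Epb42 lay near background, and Bpgm and Isg20 were also dim.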
